A study of Mus musculus with 6 samples.

Results

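The genes described here govern whether a T cell leaves a tissue or stays in it: the sphingosine 1-phosphate (S1P) receptors S1pr1, S1pr2, S1pr4 and S1pr5, the Krüppel-like factors Klf2, Klf3 and Klf13, the retention receptor Cd69 and the S1P-producing kinase Sphk1. They were taken by name, each from the probe set with exactly 1 gene symbol, and all 9 were measured among 22180 genes. Each had a single such probe set. The CD4 T cells came from digested lungs of wild-type mice that had been sensitised and challenged with house dust mite (HDM), an allergen extract, or given PBS, the saline control. Cells were sorted as CD45+ CD4+ and negative for CD11b and for the macrophage surface protein encoded by Adgre1, and their RNA was hybridised to Affymetrix mouse gene arrays. There were 3 arrays for HDM and 3 for PBS, titled as biological replicates. Strain, age, dose, days of challenge and the number of mice behind an array were not given in the labels, so p-values measure the spread between these arrays. Precision is limited by having only 3 arrays a group.

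S1P is a lipid kept high in blood and lymph and low inside tissues, and T cells carrying the receptor S1PR1 follow that gradient out of the tissue. KLF2 is a transcription factor of quiescent T cells that activates S1pr1, while CD69, induced on activation, binds S1PR1 and draws it from the cell surface. Loss of KLF2 and S1PR1 and display of CD69 are known features of T cells that remain in lung and other barrier tissues.

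Values are log2 signals made by the authors with RMA, so a difference of 1 is a doubling, and signals of different genes are not on 1 scale. The medians of the 6 arrays lay between 6.57 and 6.64. The T cell identity genes were bright, with a mean over 10 measured genes between 11.95 and 12.21 in all arrays, and Cd4 itself lay between 12.47 and 12.73. RNA of other lung cells was present too: the airway secretory gene Scgb1a1 lay between 10.94 and 12.48 and the myeloid lysozyme gene Lyz2 between 10.56 and 11.40.

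The sequences of the 250 bases before the transcription start are shown for the pair of Krüppel-like factors that fell together in HDM and for the S1P receptor that rose. They are from RefSeq on GRCm38.p6, whose table held such a window for 7 of the 9 genes and in which S1pr1 and Cd69 were not found. The Klf2 window is chr8:72318812-72319061 on the plus strand, that of Klf3 is chr5:64803271-64803520 on the plus strand, and that of S1pr2 is chr9:20976794-20977043 on the minus strand. Each is written 5′ to 3′ in the direction of its gene, and capitals mark the KLF-type box CACCC or its reverse complement GGGTG, extended to the 8 letters where the longer box CCACACCC was matched.
Klf2: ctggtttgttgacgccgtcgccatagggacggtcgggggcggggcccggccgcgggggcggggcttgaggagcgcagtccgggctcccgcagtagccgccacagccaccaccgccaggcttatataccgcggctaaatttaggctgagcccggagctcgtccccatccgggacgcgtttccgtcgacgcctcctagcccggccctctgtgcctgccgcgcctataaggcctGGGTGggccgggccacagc
Klf3: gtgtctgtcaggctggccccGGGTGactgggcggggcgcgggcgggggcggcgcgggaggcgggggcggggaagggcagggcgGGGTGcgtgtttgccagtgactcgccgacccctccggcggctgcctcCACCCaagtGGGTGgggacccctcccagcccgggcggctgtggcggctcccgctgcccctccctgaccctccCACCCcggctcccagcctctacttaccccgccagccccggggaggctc
S1pr2: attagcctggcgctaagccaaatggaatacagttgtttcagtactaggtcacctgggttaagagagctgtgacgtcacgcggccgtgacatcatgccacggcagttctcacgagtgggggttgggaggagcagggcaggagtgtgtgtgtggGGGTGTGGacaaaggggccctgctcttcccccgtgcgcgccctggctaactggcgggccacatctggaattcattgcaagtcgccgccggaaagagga

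CACCC on either strand was found once in the Klf2 window, 19 bases before the start, and 5 times in that of Klf3, at 230, 167, 120, 111 and 48 bases before it, counted to the 5′-most base of each match. The S1pr2 window held it once, at 98 bases before the start, as part of the longer box, which contains the shorter one. CACCC occurred in 52.0% of 32851 promoter windows of this length, on average 0.83 times a window, and CCACACCC in 3.20%. CACCC was also found in the windows of S1pr4, S1pr5 and Klf13 and in windows of Sphk1, genes that did not pass in the comparison below. The FOXO-type motif GTAAACA, present in 3.17% of windows, and the AP-1-type motif TGANTCA, present in 6.75%, were not among the letters of the 3 windows shown on either strand. A match is a description of the letters and no binding was measured.

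The comparison of HDM with PBS asked whether the egress and retention machinery of CD4 T cells in the lung was transcribed differently after allergen. In HDM arrays the egress receptor gene S1pr1 and the transcription factor genes Klf2 and Klf3 were lower by 1.63- to 1.86-fold, while S1pr2, a receptor that restrains migration, rose 1.44-fold. Differences were tested with limma over all 22180 genes with Benjamini-Hochberg adjustment and a threshold of 0.05. By this test 3 of the 9 genes fell, 1 rose and 5 did not pass, where 1.56% of all genes were lower, 2.39% higher and 3.95% either. The 3 HDM values lay entirely on one side of the 3 PBS values for 8 of the 9 genes, against 22.6% of all genes. The median log2 fold change of the 9 was −0.36, and over all genes it was −0.0063. The 9 genes were named with earlier results of these arrays known, so these counts describe them and are no independent evidence. The RNA came from whole sorted samples, in which fewer cells of a type and less RNA per cell cannot be told apart.

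**Figure D1:**
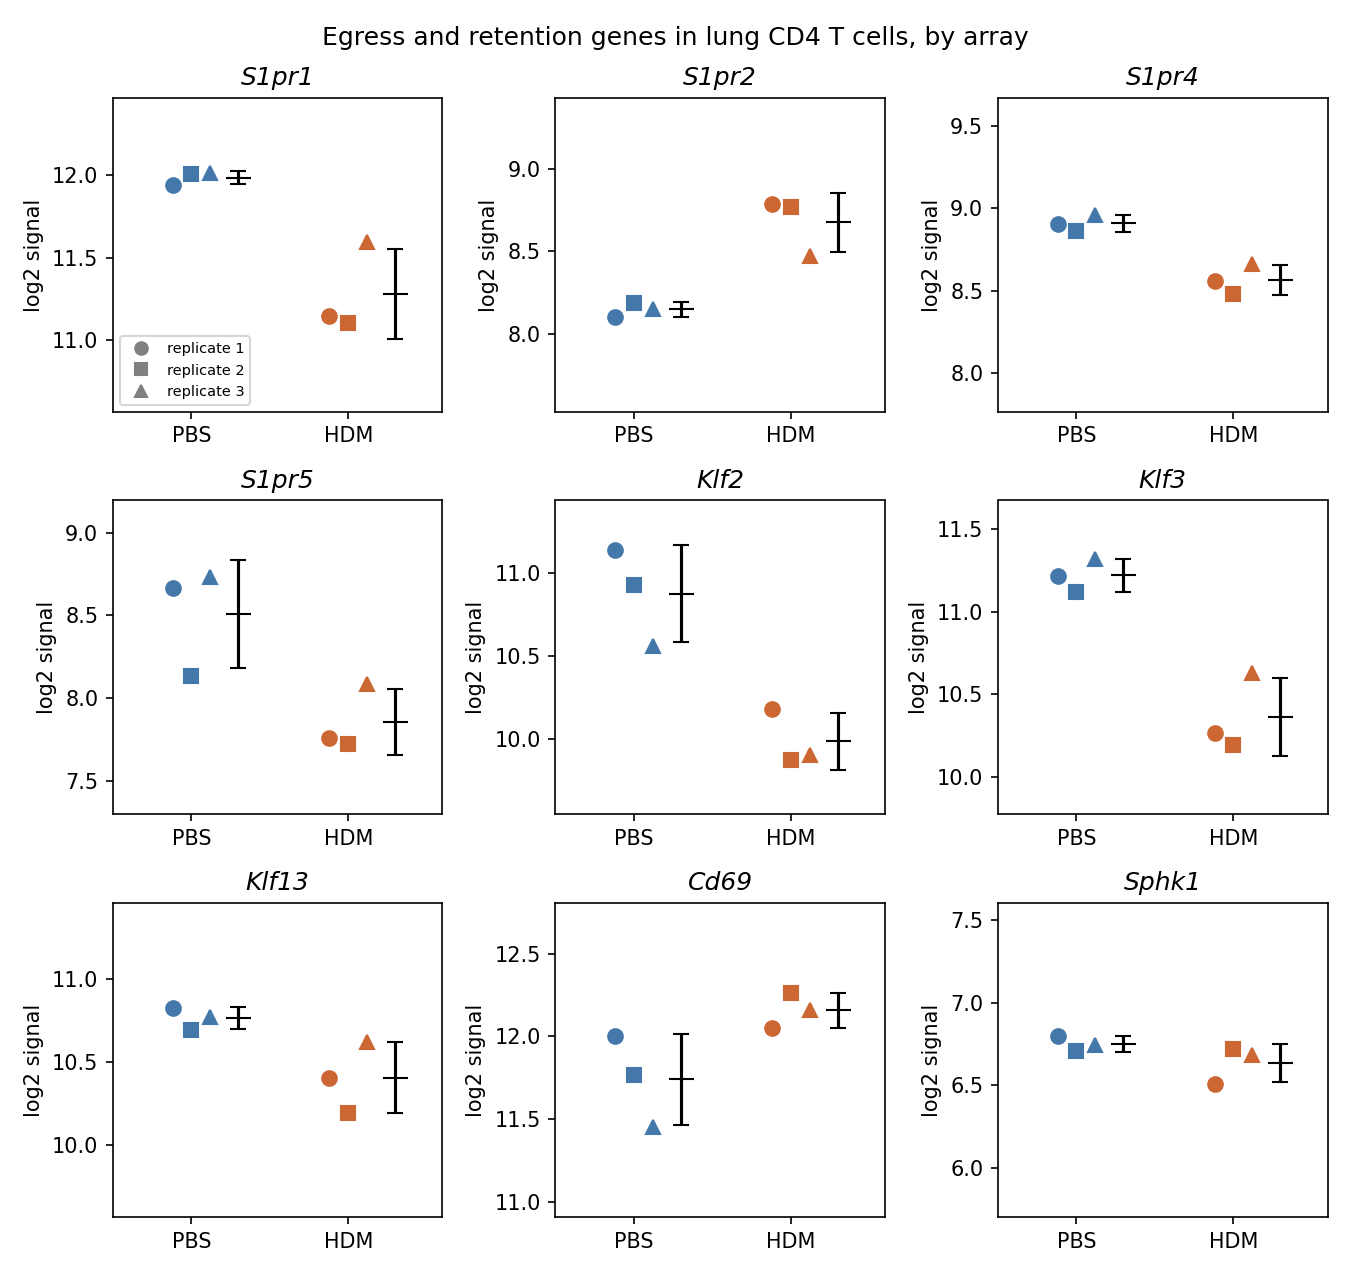
Log2 signal (vertical axis, the same span in each panel) of the 9 genes in each PBS array (blue) and HDM array (orange); circles, squares and triangles are the arrays numbered 1, 2 and 3, and the black bars give the mean and SD of 3. The groups are apart for all genes except Sphk1, with S1pr2 and Cd69 higher in HDM and the other 6 lower.

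Among the receptors, S1pr1 encodes the one that drives T cells along the S1P gradient. Its log2 signal was 11.94, 12.004 and 12.01 in PBS replicates 1, 2 and 3 and 11.15, 11.10 and 11.59 in the HDM replicates. All PBS arrays lay close together and above all HDM arrays, and HDM replicate 3 lay nearest to them. The means were 11.99 ± 0.04 and 11.28 ± 0.27 (SD, n = 3 each), a 1.63-fold lower level in HDM (log2 fold change −0.70 ± 0.13 SE, limma adjusted p = 0.0259). Leaving out any of the 3 PBS arrays or HDM replicate 1 or 2 ended the call, with differences from −0.73 to −0.62 and adjusted p reaching 0.124.

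S1pr2 encodes a receptor that, unlike S1PR1, holds back migration. Its signal was 8.10, 8.19 and 8.15 in PBS replicates 1 to 3 and 8.79, 8.77 and 8.47 in those of HDM, so every HDM array was higher. The gain was 1.44-fold (log2 fold change 0.53 ± 0.11, limma adjusted p = 0.0438). Leaving out any of the PBS arrays or HDM replicate 1 or 2 ended this call too (adjusted p reaching 0.178), as did centring each array on its median (adjusted p = 0.0644).

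S1pr4, a receptor found mainly on lymphoid and other blood cells, had signals of 8.90, 8.86 and 8.96 in PBS and 8.56, 8.48 and 8.66 in HDM. The groups did not overlap, and the log2 fold change of −0.34 ± 0.09 did not pass in limma (adjusted p = 0.0939, with 95% limits of −0.55 and −0.13 before adjustment). With the replicate number as a block S1pr4 passed as lower (adjusted p = 0.0288), as it did with array weights (0.042), which made 4 of the 9 genes lower. Array weights also raised the lower calls over all 22180 genes, from 345 to 923.

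S1pr5, known for carrying natural killer cells out of lymph nodes and marrow, had signals of 8.66, 8.13 and 8.73 in PBS and 7.76, 7.72 and 8.08 in HDM. PBS replicate 2 and HDM replicate 3 almost touched, 0.05 apart. The log2 fold change was −0.66 ± 0.18 and did not pass in limma (adjusted p = 0.0953), but passed with the block (adjusted p = 0.0104) and without HDM replicate 3 (−0.77, adjusted p = 0.047). S1pr3, which is mainly a receptor of vessel and stromal cells, had signals of 5.62, 6.21 and 7.21 in PBS and 5.95, 5.72 and 6.45 in HDM, with overlapping groups (−0.30 ± 0.37, limma adjusted p = 0.754), and its difference turned to 0.13 without PBS replicate 3.

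S1pr2 ran against the other receptors. Within each array S1pr1 was above S1pr2 by 3.82 to 3.86 in PBS and by 2.34 to 3.13 in HDM, a shift of −1.23. The shift of S1pr1 against S1pr4 was −0.36 and also left the groups apart, whereas that against S1pr5 was −0.05 with overlapping groups. Two-sided exact permutation tests over the arrays gave p = 0.1 for S1pr2 and for S1pr4, the smallest p that 3 against 3 allows, and p = 1 for S1pr5. After adjustment over the 5 pairs compared, here and among the Krüppel-like factors, these were 0.167, 0.167 and 1, and the exact test at this size could not carry a difference past the threshold. Because S1pr1 was lower and S1pr2 higher, each without overlap, their difference had to separate the groups, so its p adds nothing to the values. S1pr2 was not tested against S1pr4 or S1pr5.

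Among the Krüppel-like factors, Klf2 had the largest measured difference of the 9 genes. Its signal was 11.14, 10.93 and 10.56 in PBS and 10.18, 9.87 and 9.90 in HDM. Even the lowest PBS array, replicate 3, lay 0.38 above the highest HDM array. The mean level was 1.86-fold lower in HDM (log2 fold change −0.89 ± 0.16, limma adjusted p = 0.0227). The call was lost without PBS replicate 1, PBS replicate 2, HDM replicate 1 or HDM replicate 2, where the difference lay between −0.99 and −0.76 and the adjusted p reached 0.117.

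Klf3 encodes a repressor that binds the same CACCC-type boxes as the activating members of the family. Its signal was 11.22, 11.12 and 11.32 in PBS and 10.27, 10.19 and 10.63 in HDM. It had the widest gap between groups of the 9 genes, 0.49, and the lowest p, at 1.81-fold lower (log2 fold change −0.86 ± 0.12, limma adjusted p = 0.0112). Without any 1 of the arrays numbered 1 or 2 the adjusted p lay just above the threshold, at up to 0.0597.

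Klf13, a factor known in T cells for late induction of the chemokine gene Ccl5, had signals of 10.83, 10.69 and 10.77 in PBS and 10.40, 10.19 and 10.62 in HDM. The groups stood apart by 0.07, and the log2 fold change of −0.36 ± 0.12 did not pass in limma (adjusted p = 0.145). It passed with the block (adjusted p = 0.0311) and without HDM replicate 3 (−0.47, adjusted p = 0.0317). Within arrays, Klf2 shifted against Klf3 by −0.04, with overlapping groups (two-sided exact permutation p = 0.9, 1 after adjustment over the 5 pairs). Against Klf13 it shifted by −0.53 (exact permutation p = 0.1, adjusted 0.167), the highest HDM difference, −0.22, lying just under the lowest PBS difference, −0.21.

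Cd69 was bright in all arrays. Its signal was 12.001, 11.77 and 11.45 in PBS and 12.05, 12.26 and 12.16 in HDM, so the PBS arrays were spread more widely than the HDM arrays (SD 0.28 and 0.11) and PBS replicate 1 almost reached the lowest HDM array. The log2 fold change of 0.42 ± 0.13 did not pass in limma (adjusted p = 0.145), nor with the block (adjusted p = 0.0562), nor under any other alternative run, in which the adjusted p lay between 0.0562 and 0.382. Its 95% limits before adjustment were 0.11 and 0.73. Without PBS replicate 3 the log2 fold change was 0.27.

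Sphk1, which phosphorylates sphingosine to S1P, had signals of 6.80, 6.71 and 6.75 in PBS and 6.51, 6.72 and 6.68 in HDM. The groups overlapped, and the difference was −0.12 ± 0.09 (limma adjusted p = 0.606, 95% limits −0.33 and 0.10), and it was −0.05 without HDM replicate 1. These signals lay close to the array medians, and no detection call was given in the sources used here.

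**Figure D2:**
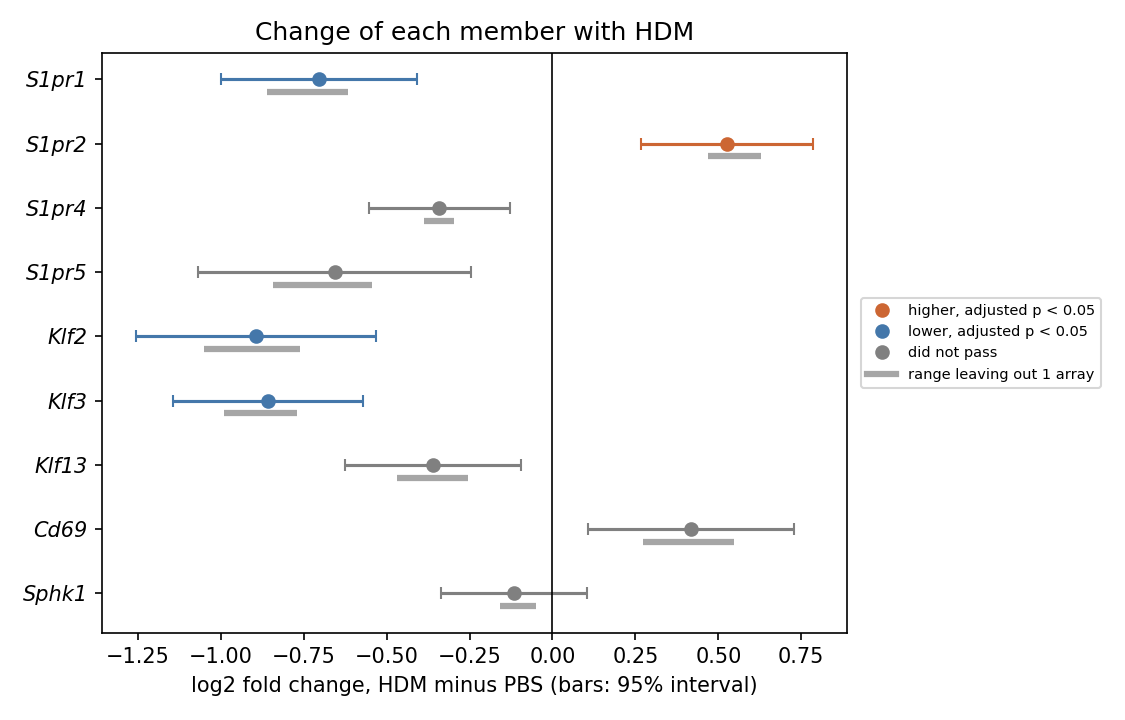
Log2 fold change of HDM minus PBS for the 9 genes (horizontal axis), with 95% intervals from limma before adjustment; grey bars beneath show the range when 1 of the 6 arrays is left out. S1pr1, Klf2 and Klf3 (blue) passed as lower and S1pr2 (orange) as higher, and no leave-out range crosses 0.

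The arrays differed in how far they moved. Of the 8 genes whose groups stood apart, HDM replicate 3 was the HDM array nearest to the PBS mean for 6, all except Klf2 and Cd69, for which HDM replicate 1 was nearest. The share of all genes for which HDM replicate 3 was nearest was not counted. Leaving it out raised the calls over all genes to 845 higher and 722 lower, from 531 and 345, so its position was not particular to these genes. Paired by number, S1pr1 differed by −0.79, −0.90 and −0.42 in the pairs numbered 1, 2 and 3, Klf3 by −0.95, −0.93 and −0.69, and Klf2 by −0.96, −1.06 and −0.66. Cd69 ran the other way, with 0.05, 0.49 and 0.71, so that its largest difference was in the pair where those of S1pr1, Klf2 and Klf3 were smallest. That largest difference came from the low Cd69 signal of PBS replicate 3 (11.45), as HDM replicate 3 (12.16) lay between the other HDM arrays. An order over 3 pairs does not show that these genes are related. With the replicate number as a block, 6 of the 9 genes fell and 1 rose, the additional ones being S1pr4, S1pr5 and Klf13, where 6.01% of all genes were lower and 5.95% higher by that fit. Without both arrays numbered 3, an alternative chosen after seeing the data, 6 fell and 1 rose, where 1326 of all 22180 genes were lower and 1250 higher.

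Of 18 measured genes that make, break down or carry S1P, 2 rose, 0 fell and 16 did not pass, with a median log2 fold change of −0.07. At an unadjusted p below 0.05 there were 4 higher and 2 lower, where 8.67% of all genes were higher and 9.17% lower at that threshold, shares that also stand behind the unadjusted counts of the lists that follow. Plpp2, a lipid phosphatase that can dephosphorylate S1P, had signals of 7.57, 7.45 and 7.38 in PBS and 8.16, 8.27 and 7.99 in HDM (0.67 ± 0.11, limma adjusted p = 0.0177). Asah1, the acid ceramidase that releases sphingosine from ceramide, had 9.36, 9.44 and 8.99 in PBS and 9.86, 9.84 and 9.85 in HDM (0.59 ± 0.12, limma adjusted p = 0.0437). All HDM arrays were above all PBS arrays for both genes. With the block 2 rose and 3 fell. Plpp2 did not pass once any array numbered 1 or 2 was removed (adjusted p reaching 0.0941), and Asah1 passed only without PBS replicate 3 among the single-array omissions (adjusted p reaching 0.158). Median centring ended the Asah1 call as well (0.059).

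In the signalling and desensitisation list, 3 of 20 measured genes rose, 0 fell and 17 did not pass (median 0.07), with 4 higher and 2 lower at an unadjusted p below 0.05. Rgs16 and Rgs1 encode GTPase activators that shorten signals of G protein-coupled receptors. Rgs16 had signals of 9.38, 9.98 and 9.47 in PBS and 11.29, 11.42 and 11.40 in HDM, a 3.39-fold gain (1.76 ± 0.15, limma adjusted p = 0.00215), and its HDM arrays stood more than 1 log2 unit above every PBS array. Rgs1 had 10.92, 10.93 and 10.70 in PBS and 11.88, 11.96 and 11.57 in HDM (0.96 ± 0.12, limma adjusted p = 0.00628). Both kept the call when any 1 array was left out. Gnaq, a G protein alpha subunit, also rose (0.76 ± 0.14, limma adjusted p = 0.0269) and lost the call without PBS replicate 1, PBS replicate 2 or HDM replicate 1 (up to 0.113). With the block 5 rose and 2 fell.

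Of 14 further members of the KLF family, 1 rose, 1 fell and 12 did not pass, and their median was −0.03. At an unadjusted p below 0.05 there were 4 lower and 1 higher. Klf7, best known for its role in neurons, had signals of 9.58, 9.69 and 9.85 in PBS and 8.99, 8.71 and 9.11 in HDM (−0.77 ± 0.13, limma adjusted p = 0.0186). Klf8, a CACCC-box repressor related to Klf3, went the other way, with 7.35, 7.16 and 7.34 in PBS and 7.80, 7.88 and 7.81 in HDM (0.55 ± 0.10, limma adjusted p = 0.0227). With the block 1 rose and 2 fell. Neither passed once any array numbered 1 or 2 was removed (adjusted p reaching 0.0947 for Klf7 and 0.111 for Klf8), and Klf7 did not pass when its probe sets were averaged (−0.49, adjusted p = 0.0616).

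Of 10 measured genes of lymphoid homing and recirculation, 4 fell, 0 rose and 6 did not pass (median −0.28), and at an unadjusted p below 0.05 there were 5 lower and 1 higher. Satb1, a chromatin organiser of T cells, fell by 0.89 (SE 0.12, limma adjusted p = 0.0102), Lef1, a transcription factor of naive T cells, by 0.85 (SE 0.08, adjusted p = 0.00249) and Ccr7, the lymph node homing receptor, by 0.66 (SE 0.14, adjusted p = 0.0399). The fourth was Foxo1, the factor that sustains Klf2 and Ccr7 expression, named outside the rule with its values known. Its signal was 11.57, 11.57 and 11.59 in PBS and 11.02, 11.05 and 11.23 in HDM (−0.47 ± 0.08, limma adjusted p = 0.0183). Of these, Ccr7 passed only without HDM replicate 3 among the single-array omissions (adjusted p reaching 0.157 in the others) and also missed the threshold with no intensity trend (0.0544). Satb1 lost the call without PBS replicate 1, PBS replicate 2 or HDM replicate 1 (up to 0.0546). Foxo1 lost it once any array numbered 1 or 2 was removed (up to 0.0951), and when its 2 probe sets were averaged (−0.26, adjusted p = 0.34). Lef1 kept it in every single-array omission. The list's count of lower genes fell to 1 without PBS replicate 1, PBS replicate 2 or HDM replicate 1, and to 2 without HDM replicate 2. With the block 6 fell and 1 rose.

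Tissue residency genes moved in the opposite direction, though not all of them: 6 of 11 rose, 0 fell and 5 did not pass (median 0.65). At an unadjusted p below 0.05 there were 8 higher and 0 lower. The 5 were Prdm1 (0.65 ± 0.16, limma adjusted p = 0.0713), Xcl1 (0.29 ± 0.09, 0.127), Itga1 (0.18 ± 0.25, 0.786), Runx3 (0.11 ± 0.14, 0.76) and Crtam (0.0014 ± 0.15, 0.998). The groups overlapped for Itga1, Runx3 and Crtam. Cxcr6, which helps to place T cells in lung tissue and airways, had signals of 9.25, 9.24 and 9.31 in PBS and 11.89, 12.02 and 11.42 in HDM (2.51 ± 0.15, limma adjusted p = 0.00047). Itgae, the CD103 integrin chain, had 7.28, 7.27 and 6.71 in PBS and 9.91, 9.85 and 9.002 in HDM (2.50 ± 0.26, adjusted p = 0.00381). Ccr8, a chemokine receptor of skin and type 2 T cells, had 8.76, 9.74 and 9.87 in PBS and 11.50, 11.77 and 11.87 in HDM (2.26 ± 0.27, adjusted p = 0.00593). HDM and PBS arrays were far apart for all 3, each kept the call when any 1 array was left out, and their log2 differences were larger in size than those of any of the 9 egress and retention genes. With the block 7 of the list rose.

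**Figure D3:**
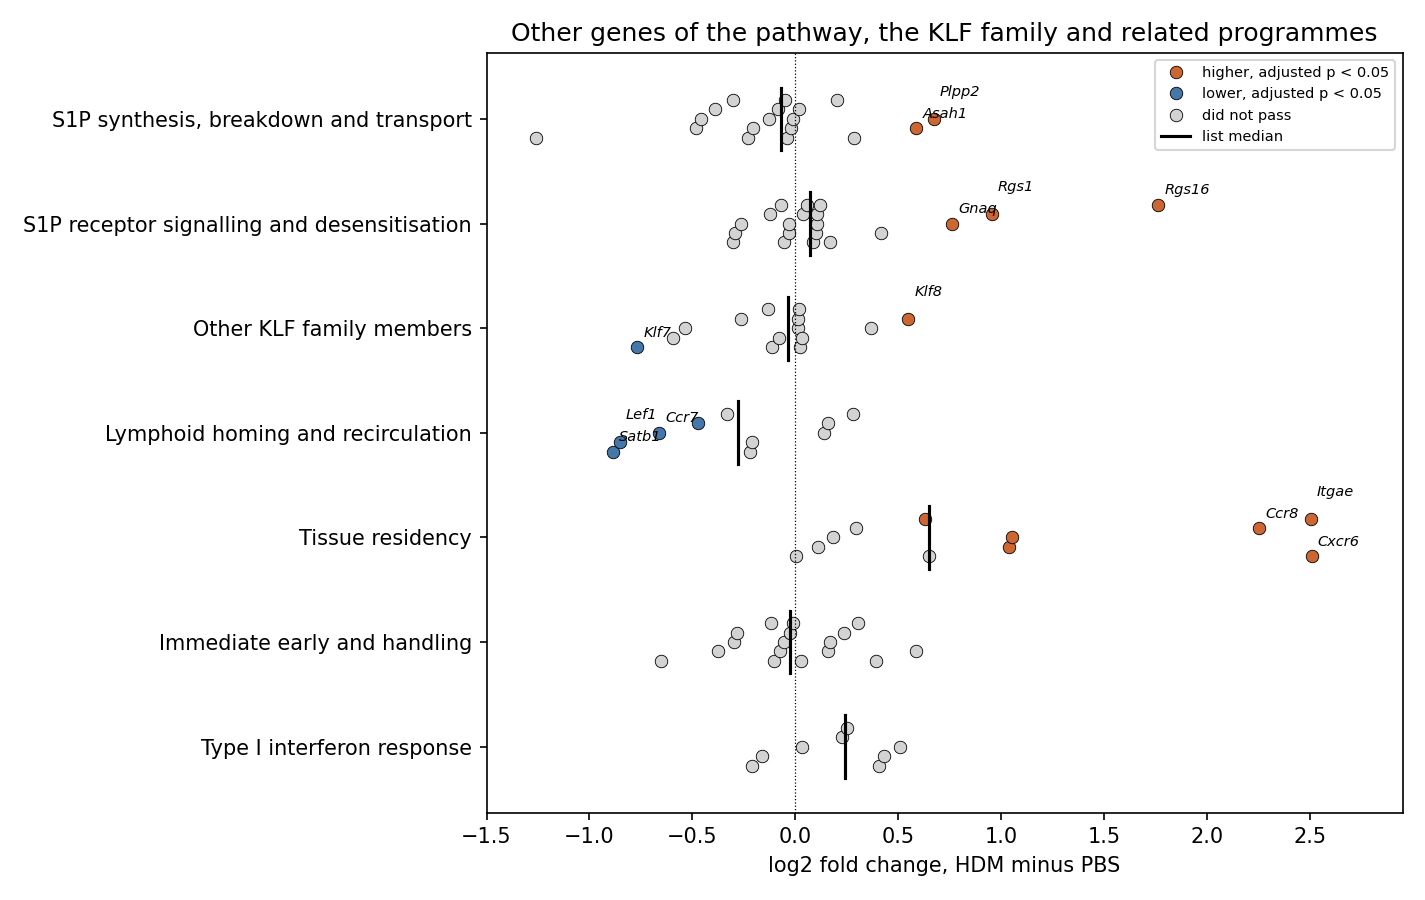
Log2 fold change of HDM minus PBS (horizontal axis) for each measured gene of 7 related lists; orange and blue points passed limma at an adjusted p below 0.05 as higher or lower, grey points did not, and black ticks are list medians. Calls were lower in the homing list, higher in the residency list, and 0 in the 2 lists at the bottom.

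Cd69 and several Krüppel-like factors also respond to tissue digestion and to interferon, so both programmes were examined beside them. Of 17 immediate early and handling genes, 0 passed in limma, with 1 higher and 1 lower at an unadjusted p below 0.05 and a median of −0.02; with the block 2 rose and 1 fell. The list's mean signal was 10.25, 10.58 and 10.71 in PBS and 10.35, 10.32 and 10.85 in HDM, highest in the arrays numbered 3 and overlapping between groups. Ier2, an early response gene, differed by −0.65 ± 0.15 (limma adjusted p = 0.0628, with the block 0.00705) and Fosb, an AP-1 subunit, by 0.59 ± 0.33 (adjusted p = 0.421, with the block 0.0139). Of 8 measured genes of the type I interferon response, 0 passed in limma, 2 were higher at an unadjusted p below 0.05 and the median was 0.24; with the block 2 rose. Rsad2, an antiviral enzyme, differed by 0.51 ± 0.13 (adjusted p = 0.0851, with the block 0.0288) and Ifit1, an antiviral RNA-binding protein, by 0.43 ± 0.27 (adjusted p = 0.484).

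S1pr1 and Klf2 are also expressed by endothelium and S1pr5 by natural killer cells, and markers of both were lower on average in HDM. All 10 endothelial genes had a negative difference (median −0.43), as had 11443 of all 22180 genes. Of the 10, 1 passed in limma, Pecam1, which T cells express too (−0.51 ± 0.08, adjusted p = 0.0169), and 4 with the block. Pecam1 no longer passed once any array numbered 1 or 2 was removed (up to 0.0961). Their mean signal lay between 7.43 and 8.38 in PBS and between 7.05 and 8.09 in HDM. Paired by number it was lower in HDM in all 3 pairs, at 7.43 and 7.05, 8.33 and 7.45, and 8.38 and 8.09. Cdh5, the vascular cadherin and a defining endothelial marker, was 8.59, 9.94 and 10.27 in PBS and 7.72, 8.62 and 9.78 in HDM. Its groups overlapped (−0.90 ± 0.57, limma adjusted p = 0.482), but it was lower in HDM in all 3 numbered pairs. The part of endothelial RNA in the S1pr1 and Klf2 differences was not tested.

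Of 7 measured natural killer genes 3 fell, 0 rose and 4 did not pass (median −0.28): Gzma, the protease granzyme A (−1.63 ± 0.19, limma adjusted p = 0.00524), Klrd1, a lectin receptor (−1.21 ± 0.23, adjusted p = 0.0317), and Prf1, which encodes perforin (−0.82 ± 0.16, adjusted p = 0.0308). The list mean was 7.36 to 7.72 in PBS and 6.67 to 7.31 in HDM, without overlap, as for S1pr5. The difference of this mean rested mostly on the 3 that fell. Klrk1 (−0.28 ± 0.33), Klrb1c (−0.12 ± 0.09) and Eomes (−0.02 ± 0.12) did not pass. Ncr1, the defining receptor of natural killer cells, was 6.62, 6.42 and 7.07 in PBS and 6.25, 6.0025 and 7.49 in HDM, overlapping (−0.13 ± 0.36, adjusted p = 0.909). The part of natural killer cells in the S1pr5 difference was not tested. Among the single-array omissions Klrd1 and Prf1 passed only without HDM replicate 3 (adjusted p reaching 0.128 and 0.133 in the others).

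The T cell identity mean was 11.95 to 12.07 in PBS and 12.13 to 12.21 in HDM, without overlap, whereas the means of the B cell, myeloid and epithelial lists overlapped. Of the T cell identity genes 1 of 10 rose, Thy1 (0.36 ± 0.06, limma adjusted p = 0.0189), which no longer passed once any array numbered 1 or 2 was removed (adjusted p reaching 0.105), and 3 with the block. Of 9 macrophage and monocyte genes, 7 B cell genes and 8 epithelial and fibroblast genes, 0 passed in limma and 0 had an unadjusted p below 0.05. Their largest differences were 0.52 for Csf1r and 0.42 for Lyz2 among myeloid genes, 0.45 for Ms4a1 and 0.33 for Cd79b among B cell genes, and −0.76 for Pdgfra and −0.40 for Sftpc among epithelial and fibroblast genes, all with SEs of 0.19 to 0.52. With the block 1 myeloid gene, Csf1r (adjusted p = 0.0488), passed as higher, and 2 epithelial and fibroblast genes, Pdgfra (0.0121) and Sftpc (0.0177), as lower. The B cell mean was 8.09 in HDM replicate 3 against 6.81 to 7.45 in the other arrays.

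**Figure D4:**
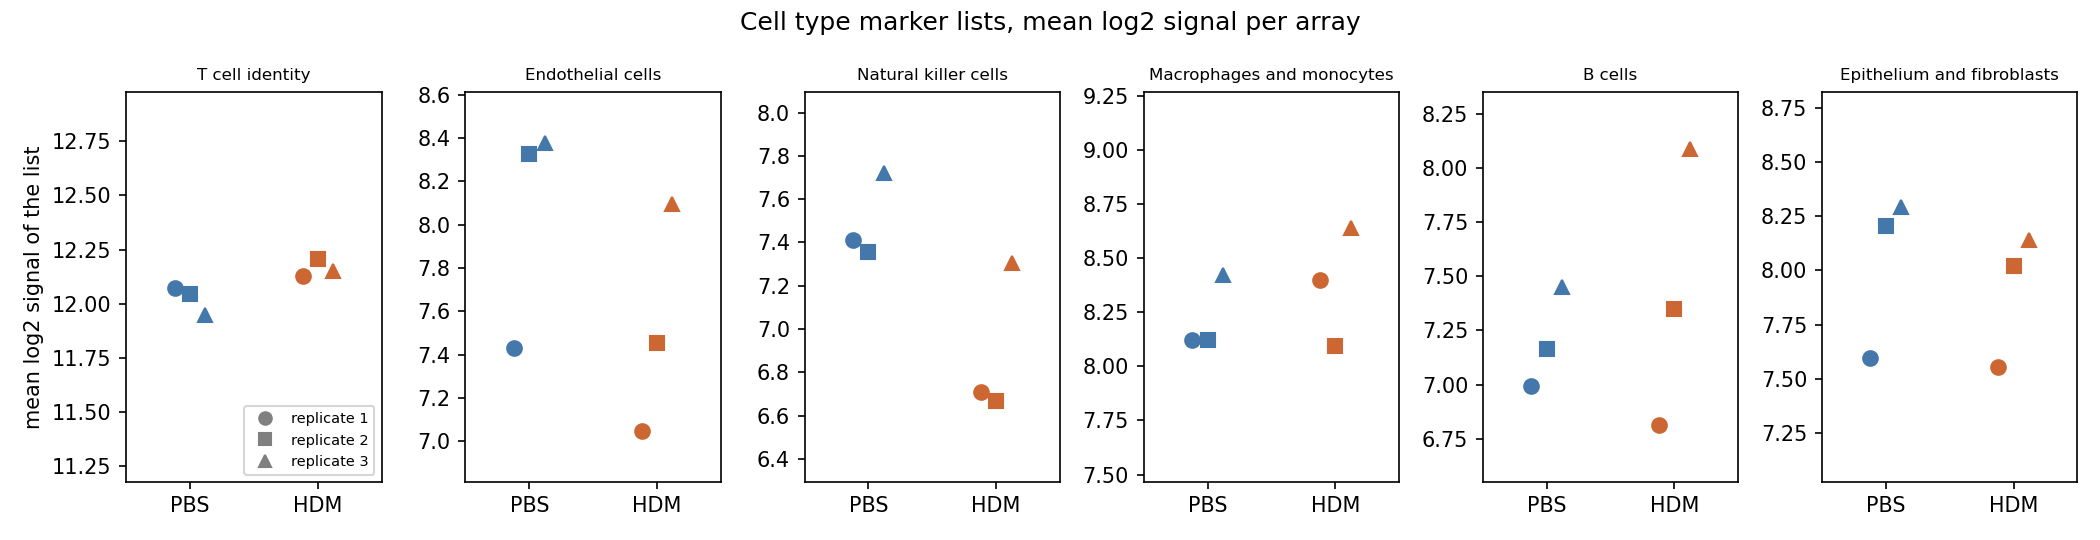
Mean log2 signal of the measured genes of 6 cell type marker lists (vertical axis, the same span in each panel) in each array; blue is PBS, orange HDM, and symbols give the replicate number. The natural killer and T cell lists did not overlap between groups, whereas the endothelial, B cell, myeloid and epithelial lists did.

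Genes with profiles most like those of the members were ranked by the root mean square difference of mean-centred log2 signals over the 6 arrays, among 3939 genes of at least median signal and with an SD of at least 0.2. For S1pr1, whose own SD over the arrays was 0.42, they were Kctd12b (0.03), P4ha1, a collagen prolyl hydroxylase (0.04), and Tiprl, a regulator of protein phosphatases (0.04). For Klf2 (SD 0.53) they were Dtx1, a Notch pathway ubiquitin ligase (0.07), Usp28, a deubiquitinase (0.08), and Dzip1 (0.08). For Klf3 (SD 0.50) they were Satb1 (0.03), Pde2a, a cyclic nucleotide phosphodiesterase (0.04), and Mylip, a ubiquitin ligase (0.06). Being chosen for likeness to genes that fell, all of these 9 fell in HDM too, by between 0.67 and 0.95 on the log2 scale. For Cd69 (SD 0.30) they were Atp5l, an ATP synthase subunit (0.07), Gbp7, a guanylate-binding protein (0.07), and Dcps, a decapping enzyme (0.08), of which 0 passed in limma. For Sphk1 the nearest, Mrgpra1, Fam166c and Irx5, differed from it by 0.10 to 0.12, no less than its own SD of 0.10. Because candidates had an SD of at least 0.2, none could lie much closer to so flat a profile. Over 6 arrays in 2 groups, many genes share such a profile.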

How the data were processed

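The authors deposited log2 signals per probe set made with RMA (background correction, quantile normalization and probe set summary), per the submitters' processing notes, which give no version. Quantile normalization equalises the arrays and hides changes in total RNA per cell. Names came from the platform's annotation: of 33960 probe sets, 23521 had exactly 1 symbol, giving 22180 genes, each read from its brightest probe set. HDM minus PBS was fitted with limma 3.58.1 in R 4.3.3 (lmFit, eBayes with an intensity trend, Benjamini-Hochberg over 22180 genes, threshold 0.05, no filter on signal). SEs are limma's. No 2 arrays shared more than 5 identical values.

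The members, lists, tests and naming rule were chosen with earlier results of these data known. Beside the 9 members and S1pr3, the rule took per list the 3 passing genes that moved most, or the top 2 by size where none passed; profile likeness had its own rule, given beside its result. Some listed genes were not analysed here.

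The labels do not say what replicate numbers stand for. As a check, each array was expressed as deviations from its group mean; across genes these correlated at 0.43, 0.17 and 0.53 between the groups' arrays numbered 1, 2 and 3. All exceed 0.1, so the numbers were treated as pairs from the data, and the fit with the replicate block is quoted wherever it alters a result. PBS replicate 1 and HDM replicate 2 correlated at 0.25, more than the arrays numbered 2 did. As the pairing was accepted on the same values that were then fitted, p-values with the block may be too small. No scan date was given. In simulations of HDM against PBS over 22180 genes, the test found 31.6% of the genes given a log2 change of 0.5 and 79.1% of those given 1, with 5.23% false calls. The simulated noise was normal and independent between arrays, with SDs shuffled among genes, and fewer genes were changed than passed in the data. It held no correlation between arrays of the same number, so these shares need not hold for the deposited arrays. Alternatives were filters on dim genes, repeated quantile normalization, median centring, other variance models, array weights, other choices of probe set, the block and leaving out arrays.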

Additional observations from a re-analysis of the deposited data

How the results depend on the processing

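No member changed sign under any alternative run, and the block moved no member's difference, only its error. With the replicate block 6 members were lower and 1 higher, and over all genes 1319 were higher and 1334 lower, against 531 and 345 without it. Median centring left 0 members higher, since S1pr2 missed the threshold. Over all genes, array weights gave 914 higher and 923 lower, and the filter at the median 557 lower. Without both arrays numbered 3, chosen after seeing the data, 6 members were lower, with 1250 genes higher and 1326 lower over all genes. Leaving out 1 array gave 0 to 1 members higher and 0 to 5 lower, and 177 to 845 genes higher and 41 to 722 lower, the most in each case without HDM replicate 3 and the fewest over all genes without PBS replicate 2; fewer arrays also leave less power. The near-zero shifts turned: Klf2 against Klf3 ranged from −0.24 to 0.14 and S1pr1 against S1pr5 from −0.15 to 0.15. Leaving out 1 array moved 10 of 40 genes by over 1.5 times, 0 of them with a call: Cd69 and Sphk1 as given above, S1pr3 (−0.67 to 0.13), Sftpc (−0.94 to 0.083), Ms4a1 (0.074 to 0.81), Cd79b (0.071 to 0.63), Ifit1 (0.089 to 0.65), Fosb (0.27 to 0.89), Csf1r (0.32 to 0.74) and Pdgfra (−1.07 to −0.48). The cause of these changes was not tested. Sphk1 fell below the filter at the median and has no value there. Of 636 values of these 40 genes over all alternatives except the one chosen after seeing the data, 541 kept direction and side of the threshold, 73 lost the call, 20 gained it and 2 turned.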

Other observations

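Within the PBS arrays, Klf2 and Cd69 ran in the same order although their differences between HDM and PBS had opposite signs: Klf2 was 11.14, 10.93 and 10.56 and Cd69 12.001, 11.77 and 11.45 in replicates 1, 2 and 3. Klf6, a Krüppel-like factor induced early in activation, and Jun, an AP-1 subunit, both picked after their values were seen, had the same order, at 12.70, 12.50 and 12.21 and at 12.01, 11.74 and 11.36. Nr4a1, an early gene of T cell receptor signalling, also picked afterwards, ran the other way, at 11.88, 12.35 and 12.59. So did the mean of the 17 immediate early and handling genes, which include Jun and Nr4a1, at 10.25, 10.58 and 10.71. The share of all genes with either order was not counted. In HDM, Klf6 was 12.38, 12.36 and 12.34 and Jun 11.53, 11.09 and 11.36, and neither passed in limma (adjusted p = 0.701 and 0.314).

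The largest difference in the S1P metabolism list belonged to a gene that did not pass, Acer2, an alkaline ceramidase that yields sphingosine, picked after its values were seen. Its signal was 8.82, 9.48 and 9.61 in PBS and 7.67, 7.69 and 8.77 in HDM (−1.26 ± 0.32, limma adjusted p = 0.079), so HDM replicate 3 lay next to PBS replicate 1 and the other HDM arrays lay more than 1 log2 unit below. It passed as lower with the block (adjusted p = 0.00427), with array weights (0.0184) and without HDM replicate 3 (0.00607).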
